A study of Mus musculus with 4 samples.

Results

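The PEA3 subfamily of ETS transcription factors (Etv1, Etv4 and Etv5) and 5 of its known regulators were described in cultured mouse alveolar type II cells. The regulators were the repressor gene Cic, its ataxin partners Atxn1 and Atxn1l, and the ubiquitin ligase genes Cop1 (older name Rfwd2) and Det1. The 8 genes were taken by name, through their Entrez identifiers, from 28096 identifiers measured by RNA sequencing of polyadenylated RNA. The data were 4 libraries with 1 genotype label, KRasEtv wt, so levels and their spread between libraries are given and there is no contrast between conditions. Type II cells had been sorted from mouse lung as EpCAM+ cells without CD24, CD45, CD31 and Pdpn. They were then grown in matrigel with 100 nM 4OHT (4-hydroxytamoxifen, which switches on CreERT2) for 4 days and without it for 1 day.

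The design text lists 3 genotypes with 4 mice each. All carry KRaswt/d12 and RosaCreERT2, a Cre made from the Rosa26 locus and so not restricted to type II cells. The other 2 also carry Etv5loxp/loxp, without or with Etv4KO/KO. The labels do not say which of the 3 the name KRasEtv wt means, and a count for a whole gene does not show whether a loxP-flanked part was removed, so the Etv4 and Etv5 values below check no label. The labels give neither the age nor the sex of the mice and do not tie libraries to mice, so p-values refer to these libraries only. Those of the exact pair tests measure how far the libraries agree in direction, and those of edgeR the spread between them. Between libraries 1, 2 and 4 this spread may be technical. Library 3 differed from them in sex by its Xist and Y-linked reads, given below, and so did not come from the same mice.

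PEA3 factors bind the GGAA core that ETS proteins recognise and carry out part of the transcriptional response to receptor, RAS and ERK signalling. Capicua, the protein of Cic, is a repressor of the PEA3 genes. It works in a complex with ATXN1 or ATXN1L and loses its hold when ERK is active. The COP1 ligase, joined by DET1 to a cullin scaffold, marks PEA3 proteins for destruction, so it acts on protein and not on RNA. In the lung, Etv5 is best known for maintaining type II cells and Etv4 and Etv5 for branching of the embryonic airways.

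Because capicua is known to act through octamers at PEA3 genes, the RefSeq promoter windows (GRCm38.p6, from 250 bases before a start site to 50 after it) were searched first. The octamers searched on both strands were TGAATGAA, TGAATGGA, TGAATGAG, TGAATGGG, TCAATGAA, TCAATGGA, TCAATGAG and TCAATGGG. The ETS hexamer GGAAGT was searched in the same way, and in the windows of the members it overlapped none of the octamers found. Windows were found for 6 of the 8 genes (9 windows), and Etv4 and Atxn1 had no entry. The 250 bases before each of the 2 Etv5 starts, both on the minus strand of chromosome 16, are shown because they differ in these octamers, which stand in capitals.

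Etv5 downstream start, chr16:22438369-22438618: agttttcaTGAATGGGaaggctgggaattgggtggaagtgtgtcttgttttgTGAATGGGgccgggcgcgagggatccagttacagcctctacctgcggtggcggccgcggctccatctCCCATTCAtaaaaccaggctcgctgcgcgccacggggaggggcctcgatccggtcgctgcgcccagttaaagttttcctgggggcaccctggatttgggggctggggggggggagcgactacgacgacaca

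Etv5 upstream start, chr16:22439571-22439820: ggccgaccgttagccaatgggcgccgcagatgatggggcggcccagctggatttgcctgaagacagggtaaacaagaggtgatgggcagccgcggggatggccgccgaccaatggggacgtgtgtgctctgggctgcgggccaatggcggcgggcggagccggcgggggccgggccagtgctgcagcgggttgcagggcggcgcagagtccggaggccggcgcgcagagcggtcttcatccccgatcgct

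The octamer TGAATGGG stood 3 times before the downstream start of Etv5, beginning at -242 and -198 on the strand of the gene and at -131 on the opposite strand, where it reads CCCATTCA. Of 32851 promoter windows, 1.08% held this octamer at least once and 1, that of Etv5, held it 3 times. Any of the 8 octamers stood at least once in 7.02% of windows and at least 3 times in 26 windows. The upstream Etv5 window held none of the 8. The 2 starts lie 1202 bases apart. The bases shown before the downstream start overlap none of the Etv5 exons of GENCODE M21. They are thus intronic to the transcripts annotated there. The part of this window after the start was not tested for overlap. In GENCODE M21 Etv5 begins at chr16:22439719, within the bases shown before the upstream start. Those bases thus lie partly inside the annotated gene, and their overlap with exons was not tested. Counts per gene do not tell which start was in use.

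Elsewhere among the members, Atxn1l had TGAATGGG once, on the opposite strand at -140 (chr8:109737902-109737931, minus strand). The ETS hexamer GGAAGT stood in the upstream window of Etv1, at -3 (chr12:38780067-38780096, plus strand), and in the downstream window of Etv5, at -217 and at 2. It occurred in 23.8% of all windows and at least 2 times in 4.18%. The 30 bases around each of the matches in Atxn1l and Etv1 are shown with the match in capitals. These are matches of letters and not measured binding sites.

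Atxn1l: tactccctggaCCCATTCAgtgggacaggc

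Etv1: gcgagttaggaaGGAAGTagtttccctcgg

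**Figure D1:**
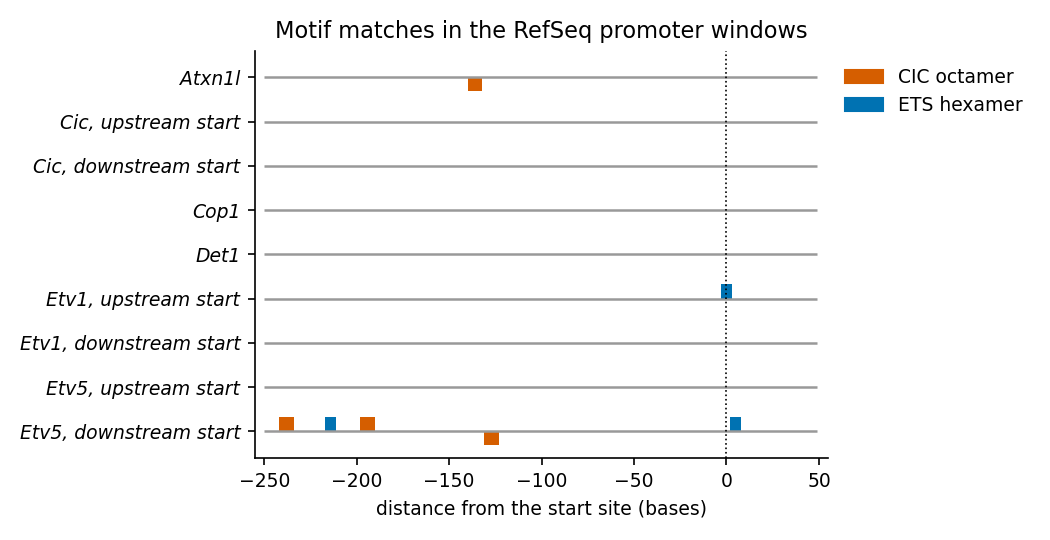
Matches of the 8 CIC octamers (orange) and of the ETS hexamer (blue) in the 9 RefSeq promoter windows of 6 members, by distance from the start site in bases. Matches drawn above a line lie on the strand of the gene and those below it on the opposite strand, and the downstream Etv5 window holds 3 octamers.

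The libraries held from 12133251 to 13591876 counted reads, of which 20.3% to 40.3% were mitochondrial. Levels are therefore given as the deposited size-factor-adjusted RPKM (nRPKM), which corrects for library and gene length. Library 3 stood apart in Xist (66.3 nRPKM against 0.255 to 0.784 in the others) and in the Y-linked gene Eif2s3y (0.243 against 14.6 to 23.2). This is the female pattern in library 3 and the male pattern in the others. The part of sex in the spread between libraries was not tested. Type II markers were present throughout, with 12 of 12 at a level of at least 1 in every library, and endothelial markers were nearly absent, with 0 of 6. The remaining marker lists are given beside the results they touch.

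Etv5 had the highest level of the 8 genes, and its reads made up most of the PEA3 signal. Counted on 1260 to 2522 reads per library, Etv5 (Entrez 104156) reached 16.2, 37.2, 31.3 and 20.6 nRPKM in libraries 1 to 4. Its mean of 26.3 ± 9.63 (SD, n = 4) lay above 95.2% of all genes. Libraries 2 and 3 were high and libraries 1 and 4 low, a 2.30-fold range. The 95% exact Poisson intervals of the 4 values, which cover counting error only, did not overlap: they ran from 15.3 to 17.1, from 35.7 to 38.6, from 30.1 to 32.6 and from 19.5 to 21.8.

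Etv4 (18612), whose human orthologue is known as E1AF, was low and even. It had 1.64, 1.95, 2.00 and 1.55 nRPKM on 59 to 98 reads, a mean of 1.79 ± 0.226 (SD, n = 4), and its 4 Poisson intervals overlapped. Its coefficient of variation (CV, the SD over the mean) was 12.6%, close to the 11.4% that counting alone would give. Etv1 (14009), also called ER81, was the lowest member, with 0.871, 1.79, 0.611 and 0.828 nRPKM on 54 to 134 reads. Library 2 alone was above 1 and its interval (1.5 to 2.12) did not overlap those of the other 3 libraries, which together spanned 0.459 to 1.09. Without library 2 the CV of Etv1 was 18.1%, against 50.9% with it.

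As a share of the summed PEA3 level, Etv5 had 86.6%, 90.9%, 92.3% and 89.7% in libraries 1 to 4, Etv4 had 8.77%, 4.77%, 5.90% and 6.74%, and Etv1 had 4.66%, 4.37%, 1.80% and 3.6%. The mean share of Etv5 was 89.8 ± 2.44% (SD, n = 4). Etv4 lay above Etv1 in 4 of 4 libraries, by 0.49 ± 0.33 on the scale of log2(nRPKM + 1), and they were nearest in library 2, where Etv1 had 0.915 times the level of Etv4. The two-sided exact sign-flip permutation test gave p = 0.13, rounded, the smallest that 4 libraries allow, and an adjusted p of 0.14 over the 28 pairs of members. The order of Etv4 and Etv1 rests on the correction for gene length: in TMM-scaled counts per library size (CPM), without length, Etv1 minus Etv4 was -0.04 ± 0.56 (exact permutation p = 0.625), and in library 2 Etv1 had 134 reads against 81 for Etv4.

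**Figure D2:**
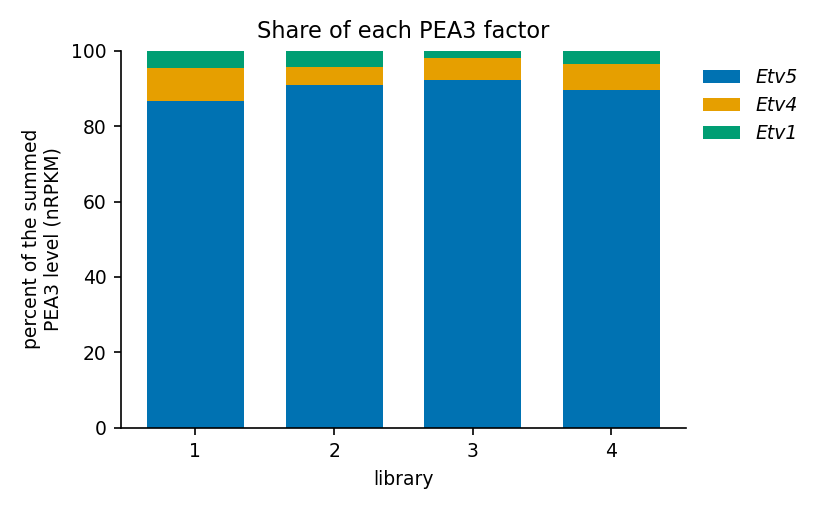
Share of Etv5, Etv4 and Etv1 in the summed PEA3 level of each library, in percent of nRPKM. Etv5 takes from 86.6% to 92.3% in the 4 libraries.

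Part of these genes cannot be counted uniquely. Of the 50-base words of the longest coding transcript, Etv5 shares 26.8% with the pseudogene Gm4798 and Etv1 shares 17.4% with the pseudogene Gm5454, on which 16 to 26 reads were counted. Etv4 shares none. The deposited values imply a gene length of 4226 bases for Etv1, where the longest RefSeq-matched transcript has 6576, so its level per base depends on the gene model. With the transcript length in its place, the mean Etv5 share was 90.8%.

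In mean nRPKM, the 3 genes of the repressor complex lay above Etv4 and Etv1 and below Etv5. For Atxn1 and Etv5 this order depended on the gene length used, and Etv5 minus Atxn1 was -0.59 in TMM-scaled CPM. Cic (71722), which encodes the DNA-binding repressor capicua, had 5.87, 8.55, 6.45 and 5.03 nRPKM on 500 to 926 reads, a mean of 6.47 ± 1.5 (SD, n = 4). Library 2 was highest and its Poisson interval (8.01 to 9.12) overlapped no other. Without library 2 the CV of Cic was 12.4%, against 23.2% with it. Cic, Etv5 and Etv1 had their highest value in the same library, 2, under each of 4 scalings of the same reads. For Etv5 the lead was slight in CPM over all reads, with 194.2 in library 2 and 193.9 in library 3. The share of all genes that were highest in library 2 is not given here, so the shared library is only a description.

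The ataxins were steadier. Atxn1 (20238), the gene of ataxin 1, whose repeat expansion causes spinocerebellar ataxia in humans, had 15.6, 11.8, 13.6 and 13.7 nRPKM on 2220 to 3364 reads. Its mean was 13.7 ± 1.54 and its CV 11.3%, and library 2, the highest for Cic, was its lowest. Atxn1l (52335), which encodes the related protein also called BOAT, had 4.99, 4.85, 6.26 and 5.58 nRPKM on 648 to 986 reads, a mean of 5.42 ± 0.642 and a CV of 11.8% (SD, n = 4). Library 3 was highest, and its interval (5.87 to 6.66) lay above those of libraries 1 and 2, which overlapped each other. Of the words of Atxn1, 3.12% lie opposite to Gmpr, and strand use is not given, so reads there may belong to either gene.

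Atxn1 exceeded Atxn1l in 4 of 4 libraries, 2.54 ± 0.404 times (SD, n = 4), a log2 difference of 1.19 ± 0.20 (exact sign-flip permutation test, two-sided p = 0.13). Atxn1 also exceeded Cic in 4 of 4 libraries, 2.22 ± 0.625 times, or 0.99 ± 0.40 on the log2 scale, with the same p of the exact test. Cic and Atxn1l did not differ beyond their spread: Cic was higher in 3 of 4 libraries, by 0.20 ± 0.36 (exact permutation p = 0.375), and library 4 went the other way. The direction also turned with the gene length used: Cic minus Atxn1l was -0.16 with RefSeq-matched transcript lengths and -0.07 in TMM-scaled CPM. The summed level of the 3 genes was 26.4, 25.2, 26.3 and 24.4 nRPKM in libraries 1 to 4, a narrow range in which higher Cic in library 2 stood beside lower Atxn1.

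The ligase genes were low. Cop1 (26374), which encodes the RING-type substrate receptor, had 2.60, 2.86, 2.32 and 3.49 nRPKM on 246 to 288 reads, a mean of 2.82 ± 0.501 (SD, n = 4). Library 4 was highest, but its Poisson interval (3.10 to 3.92) overlapped that of library 2 (2.52 to 3.24). Det1 (76375), which encodes the adaptor that links COP1 to DDB1, had 1.66, 1.65, 1.03 and 1.02 nRPKM on 37 to 75 reads, a mean of 1.34 ± 0.362. Libraries 1 and 2 were higher than libraries 3 and 4, with intervals that overlapped (1.27 to 2.10 in library 2 and 0.721 to 1.41 in library 4). Of the words of Cop1, 38.3% occur in another annotated gene, mainly the pseudogene Gm6206 (37.5%), whereas Det1 shares none, so the level of Cop1 is uncertain. As only uniquely aligned reads were counted, it may be too low.

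Cop1 exceeded Det1 in 4 of 4 libraries, 2.24 ± 0.834 times, or 0.71 ± 0.31 on the log2 scale (SD, n = 4; two-sided exact permutation p = 0.13). The ratio was 1.57, 1.73, 2.25 and 3.41 in libraries 1 to 4. It was largest in library 4, where Cop1 was highest and Det1 lowest.

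**Figure D3:**
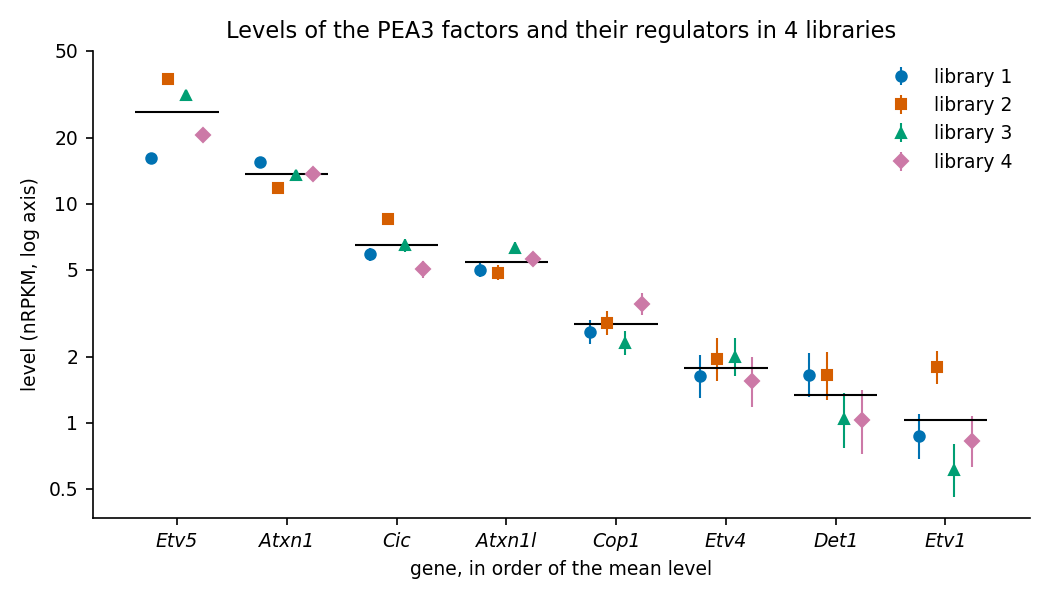
Level of each gene in nRPKM (log axis) in libraries 1 to 4, in order of the mean (black line). Thin bars are 95% exact Poisson intervals of the read count. Etv5 leads at 26.3 and Etv1 is last at 1.02.

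By mean level the order was Etv5 (26.3 nRPKM), Atxn1 (13.7), Cic (6.47), Atxn1l (5.42), Cop1 (2.82), Etv4 (1.79), Det1 (1.34) and Etv1 (1.02). Neighbours that differed in the same direction in 4 of 4 libraries, by more than the SD of their difference, were Etv5 and Atxn1, Atxn1 and Cic, Atxn1l and Cop1, and Cop1 and Etv4. Cic and Atxn1l, Etv4 and Det1 (log2 difference 0.26 ± 0.25, 3 of 4 libraries, exact permutation p = 0.25) and Det1 and Etv1 (0.23 ± 0.25, 3 of 4 libraries, exact permutation p = 0.25) did not. In TMM-scaled CPM, without length, Etv1 minus Det1 was 0.39 in place of -0.23. Of all 28 pairs, 25 met this condition, each with p = 0.13 in the exact test.

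The first place of Etv5 was closest in library 1, where it had 1.04 times the level of Atxn1, against 3.15, 2.31 and 1.5 times in libraries 2 to 4. The log2 difference of Etv5 and Atxn1 was 0.83 ± 0.67 (SD, n = 4; two-sided exact permutation p = 0.13). Without library 3 it was 0.73 ± 0.78, no longer above its SD. With RefSeq-matched transcript lengths it was 0.77 ± 0.67 but no longer of 1 direction in all libraries (exact permutation p = 0.25). In TMM-scaled CPM, which do not correct for the longer Atxn1 transcript, it was -0.59. Etv5 exceeded Cic 2.76, 4.35, 4.86 and 4.10 times in libraries 1 to 4, and Cop1 6.22, 13, 13.5 and 5.90 times, in both cases in every library.

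A level of at least 1 nRPKM in all 4 libraries was reached by 7 of the 8 genes, the exception being Etv1, and by 38.8% of all identifiers. The median member, at 4.12 nRPKM, lay below the median of 5.82 over the 11904 genes with a mean of at least 1. Etv5 exceeded 88.8% of those genes, Atxn1 76.1%, Cic 53.8%, Atxn1l 47.5% and Cop1 25.9%. Etv4, Det1 and Etv1 lay near the bottom, above 13.1%, 6.12% and 0.428%.

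The spread of each gene between libraries was set beside that of all genes with edgeR's quasi-likelihood dispersion, tested against the trend at its level. Of 13156 genes tested, 2 (0.0152%) had an adjusted p under 0.05 and 5.13% an unadjusted p under 0.05. All 8 members were tested, and none was called: 0 had an adjusted p and 0 an unadjusted p under the threshold in edgeR, and 0 of 8 were dispersion outliers in DESeq2. Etv5 had the largest ratio to the trend, 3.56 (unadjusted p = 0.0624, adjusted p = 0.981 in edgeR), followed by Etv1 with 3.05 (unadjusted p = 0.0870, adjusted p = 0.996 in edgeR) and Cic with 1.46. The other 5 lay below the trend, from 0.906 for Det1 to 0.209 for Etv4. These ratios depended on single libraries. Without library 2 that of Etv1 was 0.515 and that of Cic 0.450, while Etv5 had 3.10, Cop1 1.18 and Det1 1.04. Without library 1 Etv1 (4.33) exceeded Etv5 (2.34), and without library 4 they had 4.83 and 5.35.

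In CV, Etv1 (50.9%), Etv5 (36.6%), Det1 (27.0%) and Cic (23.2%) exceeded 20.2%, the median over genes whose mean was 1 or more. Cop1 (17.8%), Etv4 (12.6%), Atxn1l (11.8%) and Atxn1 (11.3%) lay below it. Counting error differs between them and was smallest for Atxn1 (1.94%) and Etv5 (2.43%), against 13.8% for Det1 and 11.9% for Etv1. It does not cover reads that cannot be placed uniquely, as in the part of Etv5 shared with a pseudogene.

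**Figure D4:**
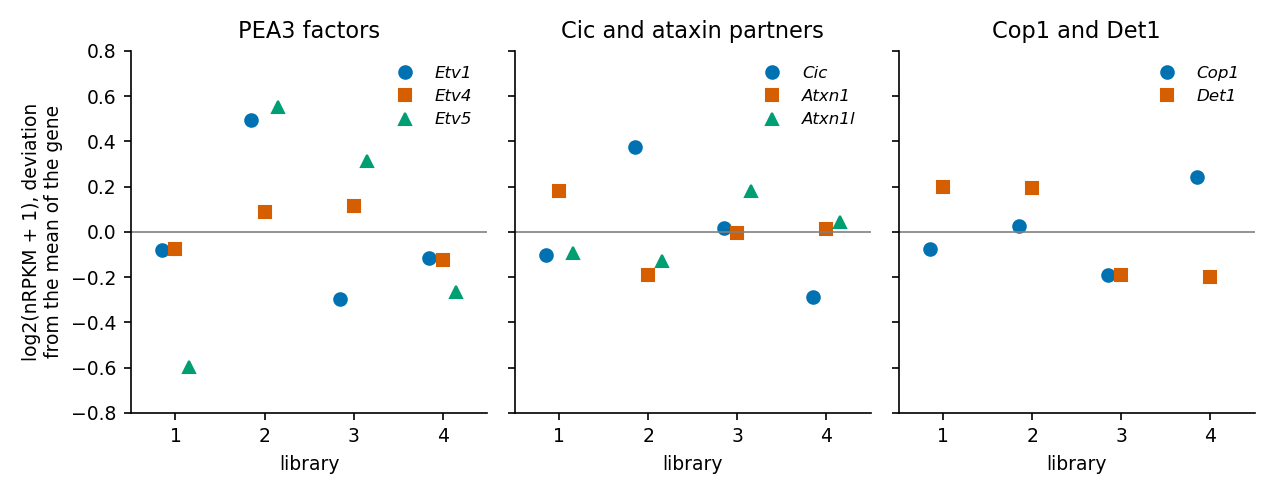
Deviation of log2(nRPKM + 1) in each library from the mean of the gene, by role. Etv5 runs from -0.60 in library 1 to 0.55 in library 2, while Atxn1 runs from -0.19 in library 2 to 0.18 in library 1.

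Deviations from each gene's own mean, on the scale of log2(nRPKM + 1), placed the members differently. Etv5 deviated by -0.60, 0.55, 0.31 and -0.27 in libraries 1 to 4. Cic deviated by -0.10, 0.37, 0.02 and -0.29, and Atxn1 by 0.18, -0.19, 0.00 and 0.01. Etv5 and Cic were thus highest in library 2, where Atxn1 was lowest. The highest library was the same under 4 scalings for 5 of the 8 genes, and the lowest for 7; Etv4, Cop1 and Det1 changed their highest and Etv5 its lowest, which was library 4 in CPM over all reads.

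Markers of cell types moved between the same libraries, and in bulk RNA fewer cells of a type and less RNA per cell cannot be told apart. Library 1, the lowest for Etv5, was also lowest for 11 of 12 type II markers, led by Sftpc (summed level 10299 nRPKM against 17146 to 22371) and 8 of 8 cell cycle markers, led by Mki67 (87.8 against 164 to 210). It was highest for 6 of 8 markers of transitional epithelium (summed level 1436 against 725 to 1012) and 5 of 6 basal cell markers, led by Krt5 (150 against 20.9 to 103). Clu, which led the transitional list, was itself highest in library 2 (478 nRPKM against 373 in library 1), and Krt8 in library 3. Krt19 (344 against 182 to 244) and Lgals3 (264 against 59.4 to 122) were highest in library 1. The part of these differences in the Etv5 values was not tested. Without library 1, Etv5 still ran from 20.6 to 37.2 nRPKM, a 1.80-fold range.

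Library 2, the highest for Etv5, Etv1 and Cic, was highest for 4 of 4 club cell markers, led by Scgb1a1 (summed level 1059 nRPKM against 150 to 316). It also had the largest sum of leukocyte markers, led by Lcp1 (94.1 nRPKM against 48.8 to 91.4), with 4 of 7 highest there. This lead over library 1 rested on Lcp1, which had 23.3 nRPKM in library 1 and 36.2 in library 2. The remaining 3 of 7 were highest in library 1, among them Cd68 (35.3 against 25.3 in library 2) and Tyrobp (10.9 against 8.81). Type I markers, led by Aqp5, summed to 447 to 591 nRPKM, with 2 of 8 lowest and 3 of 8 highest in library 2. Mesenchymal markers, led by Dcn, summed to 5.18 to 28.5 and were highest in library 1. Endothelial markers, led by Pecam1, summed to 0.195 to 0.797. Within the lists levels differed widely: Ptprc reached 0.696 nRPKM where Lcp1 reached 36.2 and Cd68 35.3, and Trp63 reached 1.08 where Krt5 reached 70.6, Krt6a 38.1 and Krt14 35.1. The cells that gave these marker reads, and their part in the values of library 2, were not tested.

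Genes around the members were then described by 6 lists of the pathway, 54 genes in all, of which 48 had at least 1 nRPKM in every library, against 38.8% of all identifiers. Of the 49 tested for spread, 0 had an adjusted p under 0.05 and 4 an unadjusted p under 0.05 in edgeR, where 5.13% of all genes tested did. These 4 were Phlda1, a gene repressed by capicua, and Muc4, Vim and Ptgs2 among the 6 tested genes reported as PEA3 targets. Levels per length depend on the gene model, and the deposited values of Spred1, Rps6ka3 and Cops6 imply lengths of 3000, 2224 and 1095 bases, where the RefSeq-matched transcripts have 6016, 7244 and 1787.

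**Figure D5:**
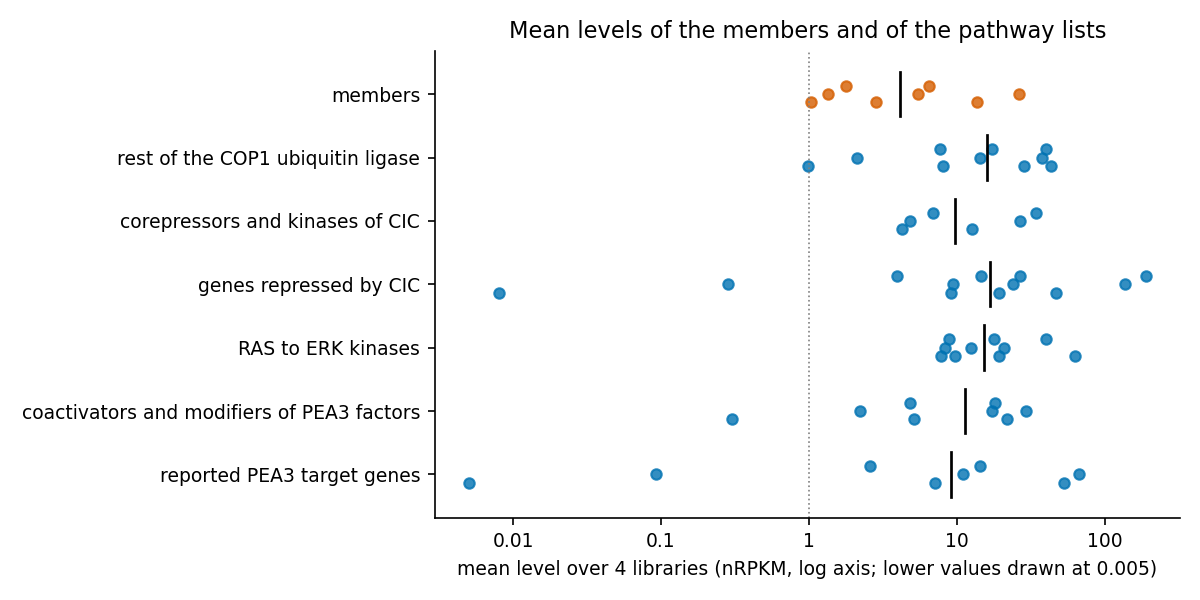
Mean level over 4 libraries (nRPKM, log axis) of the 8 members (orange) and of the genes of 6 pathway lists (blue), with the median of each list as a black line. The medians of the lists run from 9.08 to 16.9, against 4.12 for the members, and the dotted line marks 1 nRPKM.

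Genes listed around the COP1 ligase, which include signalosome and Tribbles genes beside its scaffold and linker, had a median level of 15.9 nRPKM. Cop1 had 2.82 and Det1 1.34. Of these 10 listed genes, 9 had at least 1 nRPKM in every library. The signalosome genes Cops5 (43.4 ± 3.99 nRPKM) and Cops6 (40.1 ± 3.03), whose complex removes NEDD8 from cullins, and the linker gene Ddb1 (37.5 ± 5.20) were highest (SD, n = 4). With RefSeq-matched transcript lengths, Cops6 had 24.5, below Trib1 (26.5). The scaffold genes Cul4a and Cul4b had 17.4 ± 1.95 and 8.12 ± 0.914. Of the Tribbles pseudokinases that bring other substrates to COP1, Trib1 had 28.5 ± 5.01, Trib3 had 2.12 ± 0.885 and Trib2 had 0.980 ± 0.340, with library 3 as low as 0.546 on 48 reads (SD, n = 4).

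All 6 corepressor and kinase genes listed for capicua had at least 1 nRPKM in every library. Rps6ka3, a kinase of the ERK-activated RSK family, had 34.4 ± 7.75, the deacetylase gene Hdac2 26.7 ± 5.14 and the corepressor gene Sin3a 12.6 ± 2.20 (SD, n = 4). With the RefSeq-matched transcript length Rps6ka3 had 10.6, below Hdac2 and Sin3a. Sin3a had 9.70, 13.1, 12.6 and 15 in libraries 1 to 4 and lay above Cic in each.

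Of 12 genes that capicua is known to repress, 10 had at least 1 nRPKM in every library. The highest were Phlda1 (190 ± 86.9), the cyclin gene Ccnd1 (138 ± 34.5) and Spred1 (46.6 ± 15), an inhibitor of RAS signalling (SD, n = 4). With RefSeq-matched transcript lengths Spred1 had 23.2, below the receptor gene Epha2 (26.9) and Dusp6. Phlda1 had 243, 265, 180 and 71.2 nRPKM in libraries 1 to 4 and was the 1 gene of this list with an unadjusted p under 0.05 in edgeR (0.0192, adjusted p = 0.808). The ERK phosphatase gene Dusp6 had 24.0 ± 5.58 and Spry4 had 3.91 ± 0.849. The 2 below the level were Gpr3 (0.283 ± 0.105) and Shc3, for which 1 read was counted in library 1 and none in the others. Of the 7 genes with a promoter window (9 windows), 4 (Dusp6, Epha2, Gpr3 and Maff) held at least 1 of the octamers, against 2 of 6 members. Of all windows 7.02% did, but that share is per window and not per gene, and Maff has 3 windows.

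The RAS genes and kinase genes that carry the signal to PEA3 factors were present, 10 of 10 at a level of at least 1 in every library. Mapk3, the gene of ERK1, had 62.6 ± 11.3 nRPKM, Nras 39.8 ± 4.5 and Map2k1, the gene of MEK1, 20.9 ± 3.93 (SD, n = 4).

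Among coactivators and modifiers of PEA3 factors, 7 of 8 reached 1 nRPKM in every library, led by the protein kinase A gene Prkaca (29.5 ± 6.86), the deubiquitinase gene Usp9x (21.9 ± 6.88) and the acetyltransferase gene Crebbp (18.2 ± 2.71; SD, n = 4). With RefSeq-matched transcript lengths Crebbp had 12.7, below Ep300 (15.9). The kinase gene Rps6ka5, at 0.303 ± 0.142 on 9 to 33 reads, did not. Of 8 genes reported as PEA3 targets in other cells, 6 did. Icam1, an adhesion receptor gene, was even at 66.8 ± 4.85, and the membrane protease gene Mmp14 had 14.4 ± 3.51. The cyclooxygenase gene Ptgs2 had 99.8, 38.2, 39.6 and 33.6, with its highest value in library 1, where Etv5 was lowest. Vim, an intermediate filament gene, was also highest there (19.8, 11.1, 4.74 and 8.36). So were Mmp14 (17.8, 17.0, 12.5 and 10.5) and the urokinase gene Plau (10.6, 6.06, 6.66 and 5.29), which makes 4 of the 8 listed genes. The mucin gene Muc4 (1.32, 4.29, 1.44 and 3.35) and Icam1 (60.3, 68.8, 71.7 and 66.3), 2 of the 8, were lowest there, as Etv5 was. The list thus had no common direction. No read was counted for the protease gene Mmp7, and 3 reads, the limit that a count of 0 allows, would be 0.221 to 0.247 CPM.

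The order of the libraries from highest to lowest was 2, 3, 4 and 1 for Etv5. It was shared by 5 of 47 pathway genes with at least 100 reads in every library (Spred2, Spry4, Src, Prkaca and Kat2b) and by 4.91% of the 8379 genes with that depth. The order of Cic, which was 2, 3, 1 and 4, was shared by 3 of the 47 (Dusp6, Med25 and Trib1) and by 4.87% of genes. These orders were thus also those of 411 and 408 genes and are given as a description.

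Likeness of profile was measured as the root mean square distance between log2(nRPKM + 1) values over the 4 libraries, each gene centred on its own mean, among the 8379 genes. Among the nearest to Etv5 were Pmf1 (0.0832), Kif18b (0.0883), Nfix (0.0898) and Reep4 (0.0995). Pmf1, for example, had 9.64, 22.3, 21.9 and 12.8 nRPKM in libraries 1 to 4. Nearest to Cic were Hes6 (0.00877), Retreg2 (0.0237), Atp5h (0.0289), Tmem150a (0.0311) and Grina (0.0328). Within a distance of 0.1 lay 6 genes for Etv5 and 190 for Cic.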

How the data were processed

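Per the file headers, the deposited count gives the uniquely aligned reads of each gene model, and the deposited RPKM is adjusted by a size factor (nRPKM). GSNAP and mm9 are named in the submitters' processing notes. No source used here gives the annotation, the filters or whether strand was used. Symbols came from RefSeq (GRCm38.p6) by Entrez identifier, for 25035 identifiers, and replicates 1 to 4 are named in accession order. The members and lists were chosen with earlier results of these data known.

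Levels are nRPKM. Logarithms are log2(nRPKM + 1), which understates differences of low genes. Within-library differences of the 28 pairs were tested by two-sided exact sign-flip tests with Benjamini-Hochberg adjustment. Spread was tested on the counts of all genes with edgeR 4.0.16 in R 4.3.3 (intercept only, TMM, filterByExpr, quasi-dispersion against the trended prior, F test, Benjamini-Hochberg). On simulated counts for 13156 genes, with genes changed in 1 library, it called 32% of 4-fold and 74% of 8-fold changes and 0 unchanged genes. Each simulated gene had the trended dispersion at its level, without the variation between genes that measured counts have. These shares therefore need not hold for the measured counts. Changes below 4-fold, such as the 2.93-fold range of Etv1, were not tested in this way. In the measured counts the club cell marker Scgb3a2, with a 23.9-fold range in nRPKM, was not called (adjusted p = 0.158 in edgeR). DESeq2 1.42.0 gave an alternative. Named genes were all members, the 3 highest genes of each pathway list, genes without reads, the highest gene of each marker list and the 5 genes most like Etv5 and Cic, of which 1 is not reported here. Other genes named, and the shared library orders, were chosen after their values were seen. Shared words and transcript lengths used GENCODE M21 (GRCm38). The 4 scalings compared were nRPKM, TMM-scaled CPM, CPM over all reads and CPM over non-mitochondrial reads. Alternatives were other pseudocounts, lengths, scalings, filters and thresholds, and leaving out each library.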

Additional observations from a re-analysis of the deposited data

Results flagged for a closer look

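Of the member levels, pair differences, PEA3 shares, named pathway genes and marker sums, 2 had a library far from the other 3, by a gap above Dixon's 95% critical value for 4 values. Chance alone flags about 1 in 20 such groups, and 66 were examined. The log2 difference of Etv1 and Atxn1 was -2.20 in library 2, where Etv1 was highest and Atxn1 lowest, against -3.18 to -3.01 in the others. Ptgs2 had 99.8 nRPKM in library 1, against 33.6 to 39.6 in the others.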

How the results depend on the processing

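The count of 25 of 28 member pairs with 1 direction lay between 24 and 26 under a pseudocount of 0.1, TMM-scaled CPM without length, RefSeq-matched transcript lengths and each library left out. The pairs behind the count changed. Etv5 and Atxn1 were lost without library 3, with transcript lengths and without length, and Etv1 and Etv4 without length. Etv4 and Det1 were added without library 1 and without length, and Etv1 and Det1 without library 2 and with transcript lengths. Of 196 pair values, 4 changed sign. Etv5 minus Atxn1, which had 1 direction, was -0.59 in place of 0.83 without length. The other 3 belonged to pairs without 1 direction: Etv1 minus Det1 without length (0.39 in place of -0.23), and Cic minus Atxn1l without length (-0.07 in place of 0.20) and with transcript lengths (-0.16). Apart from Etv5 minus Atxn1 without length, 44 pair values moved by more than the SD, all of them under another pseudocount or length. The Etv5 share stayed between 89.0% and 91.8% under the alternatives run. The number of genes with spread above the trend was 2, with DESeq2 size factors and without mitochondrial genes too, but 66 without a filter, 71 as DESeq2 dispersion outliers and 0 to 6 with a library left out (0 without library 2 or 3, with 640 and 619 at an unadjusted p under 0.05 in edgeR; 6 without library 1); the cause was not tested. No member was called in any of these fits. In edgeR the smallest unadjusted p of Etv5 was 0.0386, without a filter, and that of Etv1 was 0.0357, without library 1. Scalings of the library order, list counts at other levels, the range of each member without a library and the Etv5 share and pathway levels by transcript length were alternatives chosen after seeing the data, and 12 of 12 list counts stayed within 1.5 times. No paired analysis was possible because there is 1 group. Etv1, Etv4 and Det1 rested on 37 to 134 reads a library, which limits what can be seen of them.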
